A study of Mus musculus with 2 samples.

Results

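Type 17 cytokines and their receptors were followed here through 8 genes: the cytokines Il17a, Il17f and Il22, the receptors Il23r and Ccr6 carried by cells that can make them, and the IL-17 receptor chains Il17ra, Il17rc and Il17re. The genes were chosen by name and not by their measured values, and they are 8 of the 27998 genes in the count tables. Single-cell RNA-seq had been run on ear skin of ICR mice, an outbred stock, aged 7 to 8 weeks. There was 1 library from healthy control ears and 1 from ears with allergic contact dermatitis (ACD). For ACD, male mice were sensitized on the back with 1.0% DNFB, a contact hapten, the ears were painted with 0.2% DNFB 6 days later, and the ears were taken at 60 hr. Both libraries were made from minced ear digested with collagenase D and DNase1, and dead cells had been removed. Whether control ears received vehicle, and how many mice stood behind each library, is not given in the sources used here. With 1 library per condition, no difference between control and ACD could be tested.

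IL-17A and IL-17F are related cytokines that act as dimers on a receptor built from IL-17RA and IL-17RC, and keratinocytes and fibroblasts answer them with neutrophil-attracting chemokines and antimicrobial proteins. IL-22 acts mainly on epithelial cells. IL-23R, the receptor for IL-23, sustains cells of the type 17 program, and CCR6 guides cells towards the chemokine CCL20. IL-17RE pairs with IL-17RA in the receptor for IL-17C. In mouse skin, dermal T cells that carry the γδ receptor and the scavenger receptor gene Cd163l1 are a known source of IL-17A, besides CD4+ and CD8+ T cells and innate lymphoid cells (ILCs).

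Cytokine genes Il17a and Il17f lie on chromosome 1, at 20730905 to 20734496 on the plus strand and at 20777146 to 20790617 on the minus strand, with 42649 bases between them (GRCm38, GENCODE M21). Il22 is on chromosome 10 at 118204942 to 118210047. Il23r is on chromosome 6 at 67422932 to 67491855 and Ccr6 on chromosome 17 at 8236043 to 8257141. All 3 receptor chain genes are on chromosome 6, Il17ra at 120463247 to 120487559, Il17rc at 113471427 to 113483140 and Il17re at 113458484 to 113470758, so that 668 bases separate Il17re from Il17rc. All 8 are protein-coding genes.

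The 250 bases before the start of 3 of these genes are shown because these windows lie wholly outside the exons of their gene and held a motif searched for, and because families of factors active in type 17 cells (nuclear receptors, STAT, AP-1) have well-known motifs. Capitals mark a nuclear receptor half-site (AGGTCA or its reverse complement TGACCT), a STAT motif (TTCNNNGAA) or an AP-1 motif (TGANTCA). Sequences are from RefSeq, GRCm38.p6, written 5′ to 3′ on the strand of the gene.
Il17a, chr1:20730655-20730904, plus strand: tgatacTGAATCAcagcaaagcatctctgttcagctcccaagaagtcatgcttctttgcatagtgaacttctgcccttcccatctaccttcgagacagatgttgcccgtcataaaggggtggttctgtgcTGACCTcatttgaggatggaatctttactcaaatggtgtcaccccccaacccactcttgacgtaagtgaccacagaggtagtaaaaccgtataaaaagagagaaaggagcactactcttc
Il23r, chr6:67491856-67492105, minus strand: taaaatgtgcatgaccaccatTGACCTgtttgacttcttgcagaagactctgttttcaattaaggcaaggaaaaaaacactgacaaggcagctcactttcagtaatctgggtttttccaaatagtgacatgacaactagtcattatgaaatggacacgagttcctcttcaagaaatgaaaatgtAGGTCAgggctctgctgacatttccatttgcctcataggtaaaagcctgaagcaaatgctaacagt
Ccr6, chr17:8235793-8236042, plus strand: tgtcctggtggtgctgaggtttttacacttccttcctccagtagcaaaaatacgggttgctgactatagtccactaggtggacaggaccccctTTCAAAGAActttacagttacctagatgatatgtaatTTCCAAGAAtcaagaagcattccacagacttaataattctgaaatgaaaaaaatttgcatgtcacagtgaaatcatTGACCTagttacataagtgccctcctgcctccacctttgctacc
In the Il17a window the nuclear receptor half-site began 120 bases before the start and the AP-1 motif 244 bases before it. Il23r held nuclear receptor half-sites 229 and 66 bases before the start, and the Ccr6 window shown held a nuclear receptor half-site at 44 and STAT motifs at 157 and 120. A second Ccr6 window, at chr17:8242276-8242525 and also wholly outside exons of the gene, held none of the 3 motifs. The Il17f window, with 26 bases in an exon by GENCODE, had a nuclear receptor half-site 58 bases before the start. None of the 3 motifs, searched on both strands, was present in the windows of Il22, Il17rc and Il17re, of which 22, 28 and all 250 bases lie in exons of the gene by GENCODE. Over 32851 windows of the same length, 14.0% held the nuclear receptor half-site, 7.02% the STAT motif and 6.75% the AP-1 motif. A match describes letters in a window and is not evidence of binding, and the absence of a match says nothing about the factor.

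Of 12895 control and 13163 ACD barcodes, 12213 and 11665 had over 200 but under 5000 genes, no more than 25000 UMIs (molecules counted after removal of PCR copies) and a mitochondrial share below 8%. The kept cells held 92188895 and 99649023 UMIs, with medians of 6850 and 7447 per cell. Between the libraries, 47 barcode sequences were shared among the kept cells. Cells were clustered without the 8 genes and without the wider list of type 17 pathway genes, and clusters were called "-like" from fixed markers. The source classes were Cd163l1+ T-like cells (366 in control and 578 in ACD, 3.0% and 4.95% of kept cells), CD4+ T-like cells (54 and 625), CD8+ T-like cells (23 and 817) and ILC2-like cells (207 and 87). The receiving classes were keratinocyte-like (179 and 140), fibroblast-like (3943 and 1825) and endothelial-like cells (171 and 136). Different clusters held a class in the libraries: among fibroblast-like cells, cluster 3 held 1257 control but 121 ACD cells, and cluster 19, led by Cxcl9, Ccl19 and Cxcl10, held 2 control and 390 ACD cells. CD4+ T-like cells came from sub-clusters 4 (17 and 380) and 9 (37 and 245), and CD8+ T-like cells from sub-clusters 1 (8 and 548) and 8 (15 and 269).

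The names were checked against their markers, given as UMIs per 1000000 UMIs of the class. In Cd163l1+ T-like cells Cd163l1 stood at 330 in control and 642 in ACD, while in ACD it was 5.36 in CD4+ and 5.22 in CD8+ T-like cells. Cd4 was at 276 in ACD CD4+ T-like cells and Cd8a at 317 in ACD CD8+ T-like cells. The few control CD8+ T-like cells were not clear, with Cd8a and Cd4 both at 82.9. ILC2-like cells had Il13 at 112 and 314 and Gata3 at 269 and 255, although Gata3 was as high in control regulatory T-like cells, at 278. Some other markers of that list were low in ILC2-like cells, with Il1rl1 at 11.3 and 68.6, Klrg1 at 8.50 and 7.35 and Il5 at 2.83 and 14.7. Cysltr1, also on the list, was among the leading genes of the class, and values of Areg, Rnf128 and Il18r1 are not given here. The summed Cd3 genes of ILC2-like cells were at 462 and 563, against 2421 and 2739 in Cd163l1+ T-like cells, so this class was not free of Cd3 transcripts. Most of its sum was Cd3g, at 428 and 497. Its Cd3e was at 11.3 and 29.4, against 375 and 394 in Cd163l1+ T-like cells. Its Cd3d was at 22.7 and 36.7, against 483 and 591. Summed over 10 mononuclear phagocyte markers, control and ACD stood at 50.8 and 311 in Cd163l1+ T-like, 12.0 and 841 in keratinocyte-like, 24.7 and 147 in fibroblast-like and 14.3 and 1166 in endothelial-like cells. Cd74 and H2-Aa, genes of antigen presentation, made up nearly all of the ACD sums, with 639 and 197 in keratinocyte-like and 880 and 272 in endothelial-like cells. None of the other 8 markers was above 11.7 in ACD in these classes, and Csf1r was at 0 in ACD keratinocyte-like and endothelial-like cells. Levels below are UMIs per 1000000 UMIs of the class with 95% exact Poisson intervals, and ratios are ACD over control on the log2 scale with 95% exact conditional binomial intervals. These intervals cover counting error only, not differences between mice or libraries.

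Il17a, the gene of the founding cytokine of the family, was counted mostly in Cd163l1+ T-like cells. They held 522 UMIs in control, a level of 305 (279 to 332), and 3419 UMIs in ACD, a level of 907 (876 to 937). The log2 ratio was 1.57 (1.44 to 1.71). This class held 77.9% of all Il17a UMIs of the control library and 72.9% of those of the ACD library. In the whole libraries the Il17a level was 7.27 and 47.1. More Cd163l1+ T-like cells and more Il17a per cell both entered the whole-library value, since the class itself took a larger share of kept cells in ACD.

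**Figure D1:**
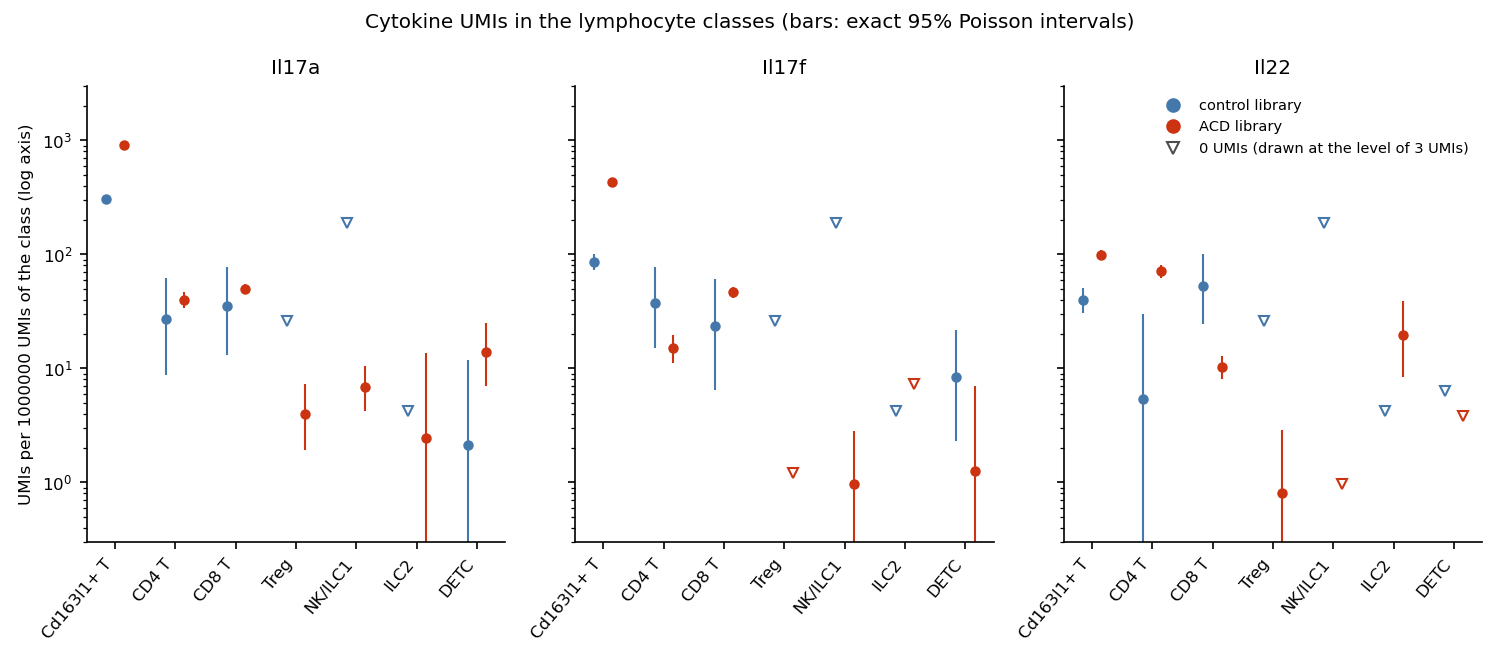
Levels of Il17a, Il17f and Il22 (UMIs per 1000000 UMIs of the class, log axis) in each lymphocyte class, control in blue and ACD in red, with 95% exact Poisson intervals; triangles stand for 0 UMIs, drawn at the level of 3 UMIs, and every class name means a marker-defined "-like" class. Il17a and Il17f reached 907 and 434 in ACD Cd163l1+ T-like cells, while Il22 was at 98.6 there and at 70.8 in CD4+ T-like cells.

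The other source classes held little Il17a in control and more UMIs, at low levels, in ACD. CD4+ T-like cells held 5 UMIs (26.8) in control and 142 (40.1) in ACD, with a log2 ratio of 0.58 (-0.68 to 2.22). CD8+ T-like cells held 6 (35.5) and 351 (49.6), a ratio of 0.48 (-0.66 to 1.94). The intervals of both ratios include 0, and the control values rest on 1 and 2 cells. In ACD, 1 CD4+ T-like cell with 0 Cd4 UMIs held 62 of the 142 UMIs, and 2 CD8+ T-like cells held 96 and 59 of the 351. Without the 2 highest cells of each library the ACD levels were 18.7 and 27.8, with 0 control UMIs left in both classes. Both control cells of the CD8+ T-like class had Cd4 UMIs and 0 of Cd8a. With 23 and 817 cells, CD8+ T-like cells contributed 0.896% of control and 7.48% of ACD Il17a UMIs. ILC2-like cells held 0 UMIs in control and 1 in ACD. Dendritic epidermal T-like cells, the epidermal γδ T cells, held 1 and 11 UMIs (2.11 and 13.9), a ratio of 2.72 (-0.06 to 8.15). NK/ILC1-like cells held 0 and 21 UMIs, and regulatory T-like cells 0 and 10. A lymphocyte class that also carried fibroblast and chondrocyte genes, left unnamed as mixed (108 and 268 cells), held 63 and 350 Il17a UMIs, 9.40% and 7.46% of those of the libraries.

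Within the Cd163l1+ class, sub-clusters 3, 7 and 11 carried Il17a very unequally. Sub-cluster 3, led by 5830411N06Rik, Ramp1 and Pxdc1, held 318 control and 214 ACD cells. Sub-cluster 7, led by Il17f, Il17a and Cd163l1 although the cytokine genes took no part in the clustering, held 14 and 280 cells. Sub-cluster 11, led by the cell-cycle genes Cenpf, Ube2c and Birc5, held 34 and 84 cells. Sub-cluster 7 was thus 3.83% of the class in control and 48.4% in ACD, and a sub-cluster mostly of 1 library may reflect that library rather than a cell type.

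Inside the sub-clusters the Il17a ratios were below that of the class as a whole, by an amount that depended on few cells. In sub-cluster 3 it was 260 in control and 219 in ACD, with a ratio of -0.25 (-0.49 to -0.01). In sub-cluster 7 it was 1416 and 1648, a ratio of 0.22 (-0.09 to 0.54), the control value coming from 87 UMIs in 14 cells. In sub-cluster 11 it was 276 and 439, a ratio of 0.67 (0.33 to 1.02). Without the 2 highest cells of each library in each sub-cluster, the ratios were -0.24 (-0.50 to 0.03) in sub-cluster 3, 0.97 (0.49 to 1.48) in sub-cluster 7 and 1.48 (0.90 to 2.11) in sub-cluster 11, against 1.58 for the class without its own 2. Sub-cluster 7 alone held 13.0% of the Il17a UMIs of the control library and 58.9% of those of the ACD library.

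**Figure D2:**
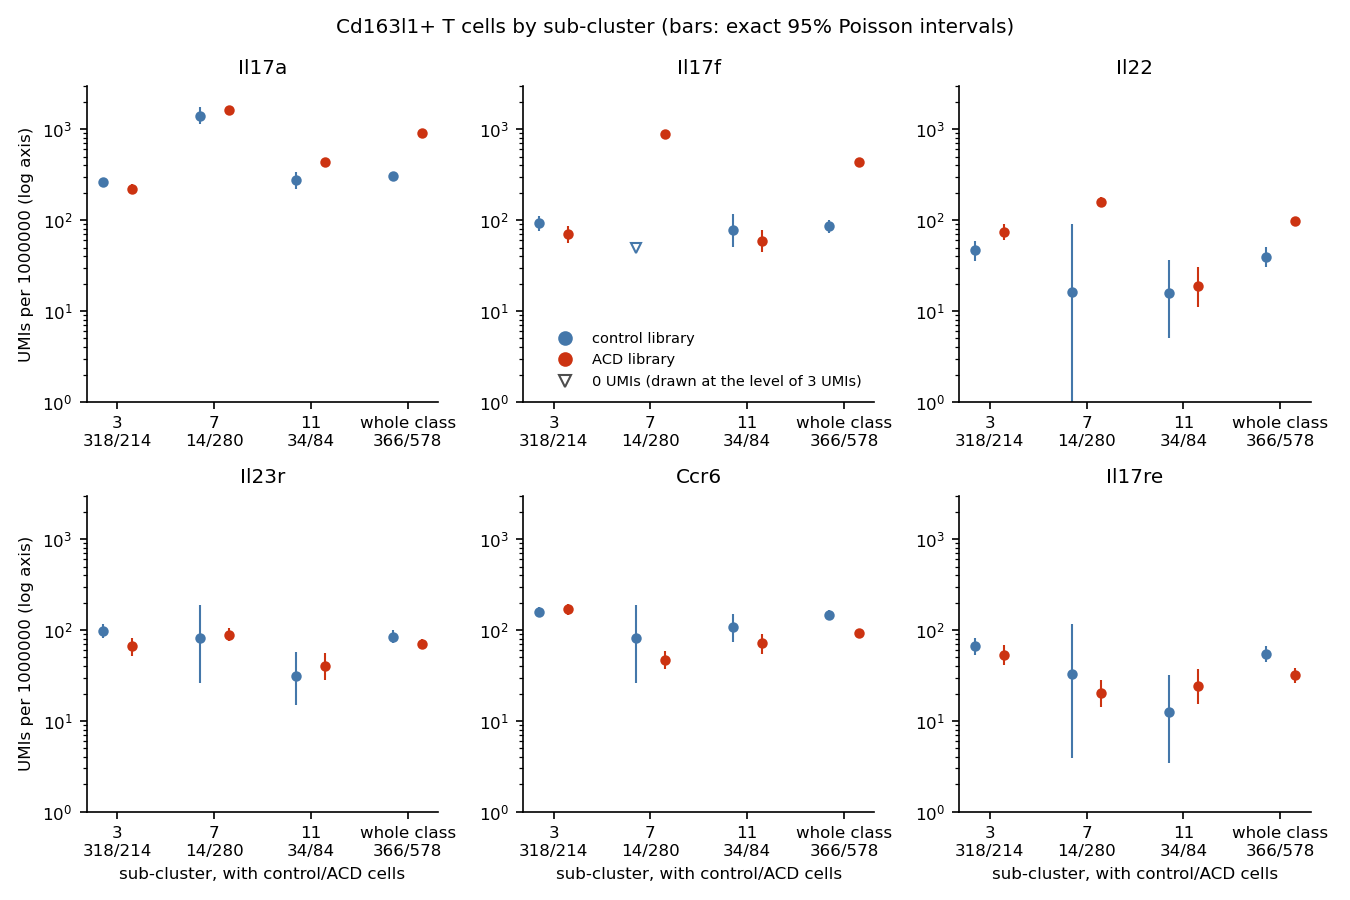
Levels (UMIs per 1000000 UMIs, log axis) of Il17a, Il17f, Il22, Il23r, Ccr6 and Il17re in sub-clusters 3, 7 and 11 of the Cd163l1+ T-like cells and in the whole class, control in blue and ACD in red, with 95% exact Poisson intervals; triangles stand for 0 UMIs, drawn at the level of 3 UMIs. Il17a was at 1416 and 1648 in sub-cluster 7, against 260 and 219 in sub-cluster 3.

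The share of Cd163l1+ T-like cells with Il17a was also higher in ACD at equal depth. After each cell was thinned to 2000 UMIs, 47 of 351 control Cd163l1+ T-like cells had an Il17a UMI, 13.4% (exact 95% interval 10 to 17.4), and 199 of 567 ACD cells, 35.1% (31.2 to 39.2). Unthinned shares were 15.8% and 44.8%, with a median of 3989 and 5682 UMIs per cell, and thinning left out 15 and 11 shallower cells. Chondrocyte-like cells, which should lack the gene, gave 0.0693% and 0.0945% thinned and 0.115% and 0.468% unthinned, with a median of 7351 and 8840 UMIs. Thinned shares were 11.8% and 13.0% in sub-cluster 3, and 53.8% (7 of 13 cells) and 55.8% (154 of 276) in sub-cluster 7. In ACD CD4+ and CD8+ T-like cells they were 1.79% (11 of 614) and 2.79% (22 of 789), both above the chondrocyte-like background. Among control CD4+ T-like cells 1 of 54 had Il17a, and among control CD8+ T-like cells 2 of 23.

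Il17a UMIs were concentrated in few cells. In control, 58 Cd163l1+ T-like cells had the gene, with a median of 4 UMIs, and 9 of them held 50% of the UMIs. In ACD, 259 had it, with a median of 7, and 28 held 50%. The highest ACD cell had 415 UMIs, 12.1% of the class total, and the highest control cell 47. Cells over 10 UMIs numbered 16 in control and 90 in ACD. Without the 2 highest cells of each library the log2 ratio was 1.58, so the class value for Il17a did not rest on them.

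Il17f, the gene of the partner that forms heterodimers with IL-17A, followed Il17a in place but rested on very few cells. Cd163l1+ T-like cells held 148 UMIs in control, a level of 86.4 (73.1 to 102), and 1635 in ACD, a level of 434 (413 to 455), which gave a log2 ratio of 2.33 (2.08 to 2.58). In ACD, 1 cell of sub-cluster 7 had 548 Il17f UMIs out of 8992 and another had 490 out of 11197, together 63.5% of the class total. The cell with 548 also had 415 Il17a UMIs, and it had 4 Cd3 UMIs with 0 of Cd163l1 and Blk. Without the 2 highest cells of each library, the levels were 68.7 and 159 and the ratio 1.21 (0.92 to 1.51). The direction was unchanged, and the size was less than the value with these cells.

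**Figure D3:**
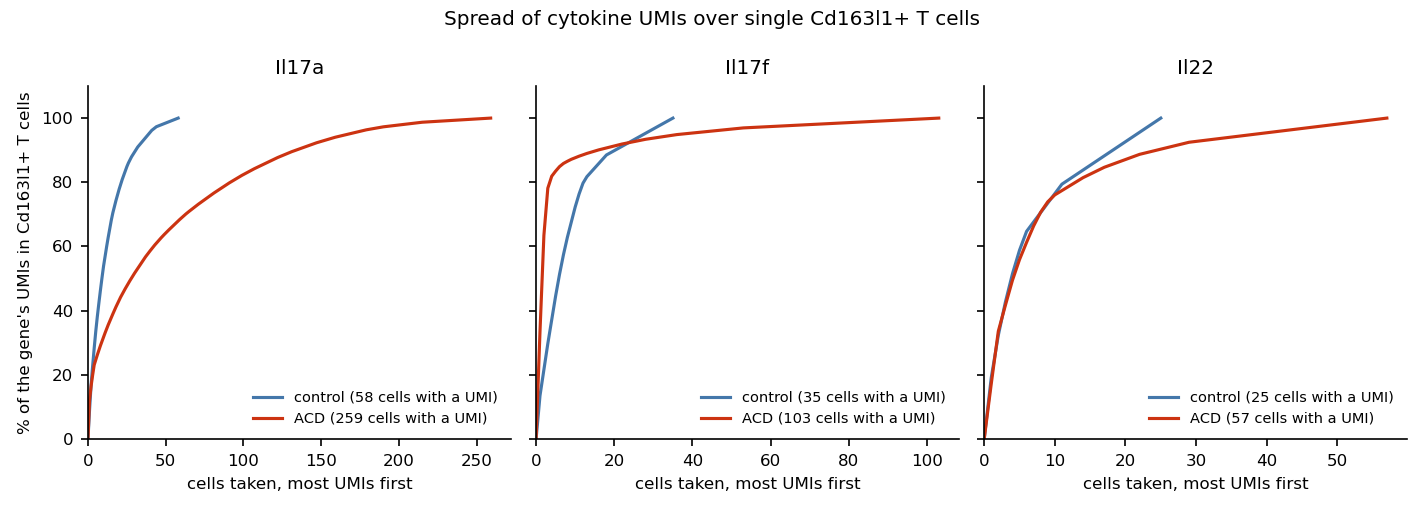
Cumulative share (%) of the UMIs of Il17a, Il17f and Il22 over the Cd163l1+ T-like cells that had the gene, ordered from the highest cell, control in blue and ACD in red. In ACD the Il17f curve reached 63.5% with 2 cells, while Il17a needed 28 cells for 50%.

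By sub-cluster, Il17f was at 92.3 in control and 70.2 in ACD in sub-cluster 3, a ratio of -0.39 (-0.81 to 0.02), and at 78.5 and 59.0 in sub-cluster 11. The direction in sub-cluster 11 rested on 2 cells, since without the 2 highest cells of each library the levels were 7.00 and 27.3, a ratio of 1.96 (-0.05 to 5.09). In sub-cluster 7, the 14 control cells had 0 UMIs and the 280 ACD cells had 1498, a level of 893. Against 3 UMIs, the limit that a count of 0 allows, this is at least 18.3-fold higher, and without the 2 highest cells the ACD level was 278. Thinned to 2000 UMIs, 5.41% of control and 10.8% of ACD Cd163l1+ T-like cells had Il17f, against 9.56% and 17.8% unthinned. Chondrocyte-like cells gave 0.0231% and 0% thinned, and 0.0230% and 0.187% unthinned. The class therefore had more cells with Il17f in ACD as well as the few very high cells.

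CD8+ T-like cells were the next source of Il17f. They held 4 UMIs (23.7) in control, all in 1 cell with 2 Cd4 UMIs and 0 of Cd8a, and 328 (46.3) in ACD, a ratio of 0.97 (-0.40 to 2.85), and with 14.4% of the ACD library's Il17f UMIs against 1.82% in control. CD4+ T-like cells held 7 UMIs (37.6), all in 1 cell, and 53 (15.0), a ratio of -1.33 (-2.47 to 0.05). The intervals of both ratios include 0. Of the Il17a and Il17f UMIs together, Il17a made up 51.7% (47.9 to 55.5) in ACD CD8+ T-like cells, 72.8% in ACD CD4+ T-like cells and 77.9% and 67.6% in control and ACD Cd163l1+ T-like cells.

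Cells with both genes were more common among Cd163l1+ T-like cells with Il17a than among those without. At 2000 UMIs per cell, Il17f was found in 21.3% of control cells with Il17a and 2.96% of those without, and in 20.1% and 5.71% of ACD cells. Ccr6 went the other way in ACD, with 10.6% of cells with Il17a and 18.8% of those without, whereas in control the shares were 23.4% and 24.3%. As counted, 276 control cells (75.4%) and 265 ACD cells (45.8%) had none of the 3 cytokine genes. All 3 were found together in 5 control and 6 ACD cells.

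Il22 had a second ACD source in the CD4+ T-like cells. Cd163l1+ T-like cells held 68 UMIs, a level of 39.7 (30.8 to 50.3), in control and 372, a level of 98.6 (88.9 to 109) in ACD, for a log2 ratio of 1.31 (0.94 to 1.71). Without the 2 highest cells of each library the ratio was 1.28 (0.82 to 1.77). The class held 79.1% of the control library's Il22 UMIs and 49.4% of those of the ACD library, while CD4+ T-like cells held 1.16% and 33.3%. At a fixed depth of 2000 UMIs, 3.99% of control and 3.88% of ACD Cd163l1+ T-like cells had Il22 (unthinned 6.83% and 9.86%), against 0% and 0.0315% of chondrocyte-like cells. At that depth Il22 differed in UMIs per cell rather than in the share of cells with the gene.

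In sub-cluster 3 the Il22 level was 46.5 in control and 74.4 in ACD, a ratio of 0.68 (0.19 to 1.17), which became -0.03 when every cell was thinned and 0.30 (-0.35 to 0.95) without the 2 highest cells of each library. Sub-cluster 7 held 1 UMI (16.3) in control and 266 (159) in ACD, a ratio of 3.29 (0.79 to 8.59). Sub-cluster 11 was at 15.7 and 18.9. Il22 was often found without the IL-17 genes: in ACD, 23 Cd163l1+ T-like cells with Il22 and neither Il17a nor Il17f held 179 UMIs, and 34 cells with either held 193.

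CD4+ T-like cells held 1 Il22 UMI (5.37) in control and 251 (70.8) in ACD, a ratio of 3.72 (1.23 to 9.03). In ACD, 21 cells had the gene, and 1 cell with 163 UMIs held 64.9% of them. Of these 21 cells, 6 also had Il17a or Il17f and held 193 of the UMIs, most of them in that 1 cell, which had 14 Il17a UMIs. The 15 cells with neither gene held 58. Without the 2 highest cells of each library the ACD level was 16.7, with 0 control UMIs left. CD8+ T-like cells went the other way, with 9 UMIs (53.3) in control and 73 (10.3) in ACD, a ratio of -2.37 (-3.37 to -1.18). That ratio rested on 1 control cell with 8 UMIs, and without the highest cell of each library it was 0.17. Both control cells with Il22 in that class had 2 Cd4 UMIs and 0 of Cd8a. ILC2-like cells held 0 UMIs in control and 8 (19.6) in ACD, in 3 cells, which is at least 4.61-fold higher against 3 UMIs.

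Il23r, the receptor that keeps type 17 cells going, stayed with the Cd163l1+ T-like cells in both libraries. They held 145 UMIs (84.7) in control and 264 (70.0) in ACD, which was 81.5% and 76.5% of all Il23r UMIs, and the log2 ratio was -0.27 (-0.57 to 0.03). Every other named class was at or below 5.37. In sub-cluster 3 the level was 97.5 in control and 66.0 in ACD, a ratio of -0.56 (-0.98 to -0.15), and in sub-cluster 7 it was 81.4 and 88.9, a ratio of 0.13. Sub-cluster 11 had 10 and 36 UMIs, a ratio of 0.35. At 2000 UMIs per cell, 17.7% and 14.3% of Cd163l1+ T-like cells had Il23r (unthinned 31.1% and 35.6%), with 0% of chondrocyte-like cells in both libraries. So in ACD the Cd163l1+ T-like cells had a higher Il17a level with no higher Il23r level, while the whole-library Il23r level went from 1.93 to 3.46 with the number of these cells.

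Ccr6 was shared between Cd163l1+ T-like and ILC2-like cells. In Cd163l1+ T-like cells it was at 146 (250 UMIs) in control and 91.7 (346 UMIs) in ACD, a ratio of -0.67 (-0.91 to -0.43). In ILC2-like cells it was at 272 (192 UMIs) and 296 (121 UMIs), a ratio of 0.12 (-0.22 to 0.46). These classes held 44.4% and 34.1% of the Ccr6 UMIs of the control library and 48.2% and 16.9% of those of the ACD library. Thinned shares of cells with Ccr6 were 24.2% and 15.9% in Cd163l1+ T-like cells (unthinned 43.4% and 32.9%) and 39.1% and 41.0% in ILC2-like cells (52.7% and 55.2% before thinning). Only 0.0462% and 0.0315% of chondrocyte-like cells had it.

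The lower Ccr6 level of the Cd163l1+ class was not seen in its main control sub-cluster. Sub-cluster 3 was at 158 in control and 170 in ACD, a ratio of 0.10 (-0.18 to 0.39). Sub-cluster 7 was at 81.4 and 47.1, a ratio of -0.79, with 5 control UMIs. Sub-cluster 11 was at 107 and 71.2, a ratio of -0.58 (-1.21 to 0.06). The Ccr6 level was thus lowest in the sub-cluster where Il17a was highest. Elsewhere, regulatory T-like cells went from 9 UMIs (78.3) to 51 (20.4), a ratio of -1.94 (-2.98 to -0.73), and CD4+ T-like cells from 5 (26.8) to 46 (13.0), a ratio of -1.05.

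Il17ra, the chain common to several IL-17 receptors, was found in every source and receiving class. In fibroblast-like cells it was at 35.8 in both libraries, from 1169 and 714 UMIs, a log2 ratio of -0.00 (-0.14 to 0.14). In keratinocyte-like cells it was at 19.6 (49 UMIs) and 16.5 (31 UMIs), a ratio of -0.25 (-0.95 to 0.43), and in endothelial-like cells at 37.3 (47 UMIs) and 25.5 (40 UMIs), a ratio of -0.55 (-1.19 to 0.09). All 3 intervals include 0, and for fibroblast-like cells the interval leaves little room for a difference in counting terms. In the source classes Il17ra was at 86.4 and 70.8 in Cd163l1+ T-like, 150 and 103 in CD4+ T-like and 82.9 and 77.4 in CD8+ T-like cells. In control, CD4+ T-like cells were above Cd163l1+ T-like cells beyond counting error, and the next neighbours in order were not separated. Mononuclear phagocyte-like cells were at 48.8 in control and 81.1 in ACD, a ratio of 0.73 (0.23 to 1.27).

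**Figure D4:**
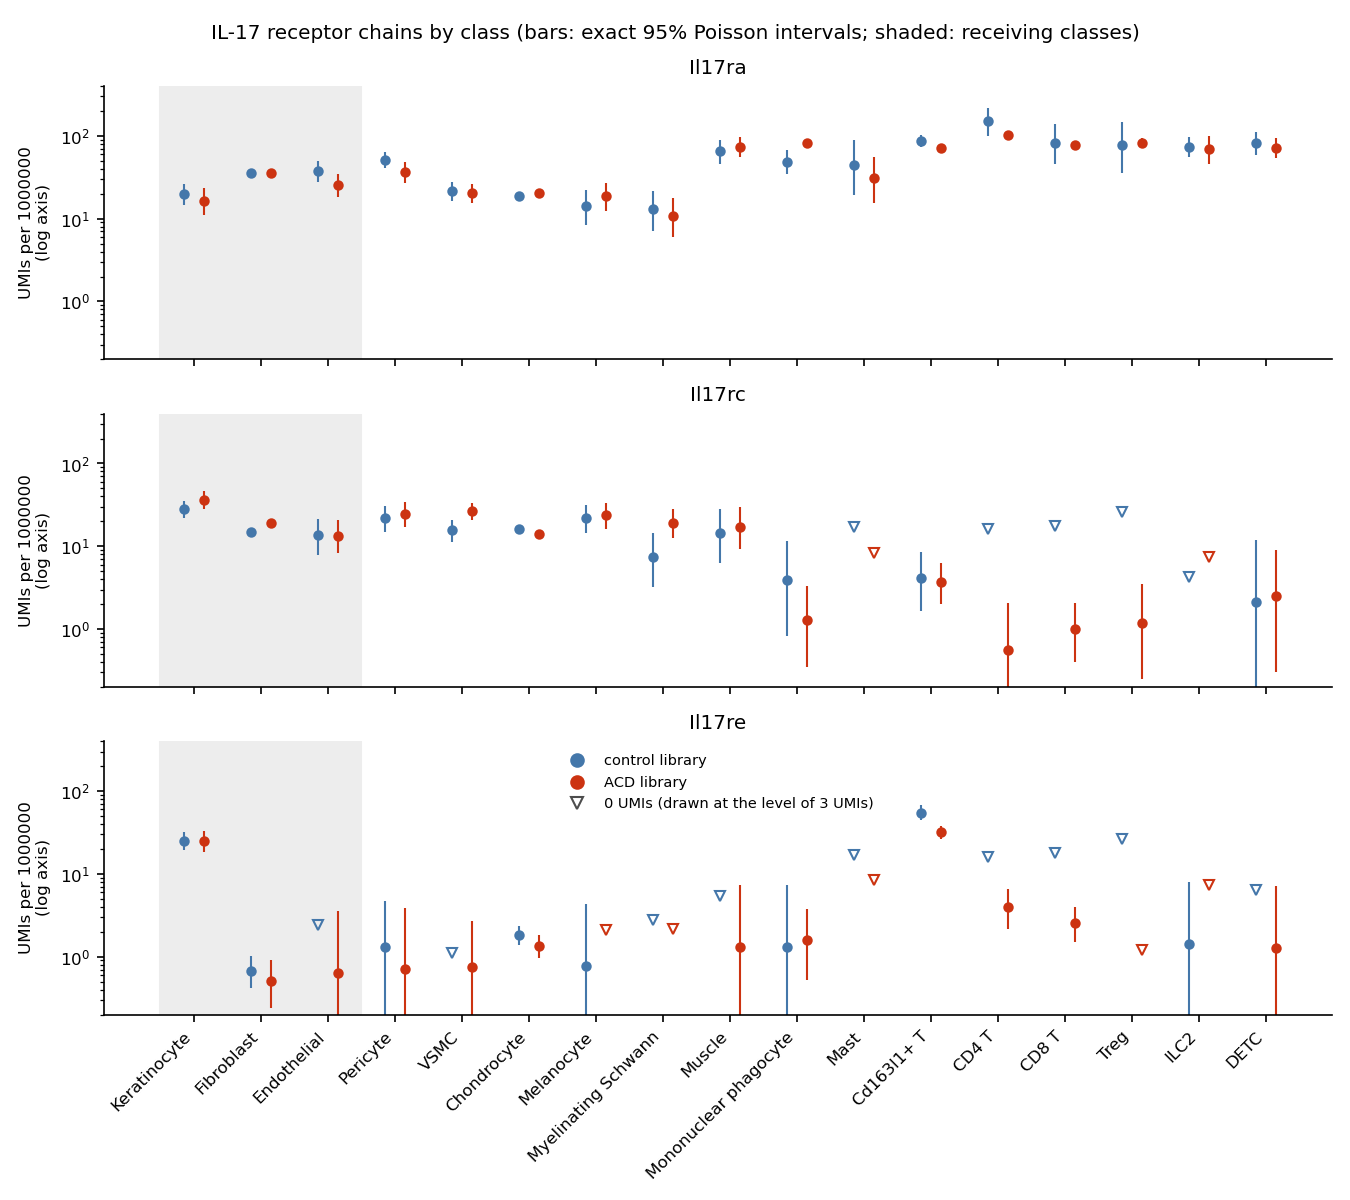
Levels (UMIs per 1000000 UMIs of the class, log axis) of the receptor chain genes Il17ra, Il17rc and Il17re in 17 marker-defined "-like" classes, control in blue and ACD in red, with 95% exact Poisson intervals; the receiving classes are shaded. Il17ra was at 35.8 in fibroblast-like cells of both libraries, and Il17re at 25.2 and 25.0 in keratinocyte-like cells.

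Il17rc, the chain that completes the receptor for IL-17A and IL-17F, was a gene of resident cells. Keratinocyte-like cells were at 28.0 (70 UMIs) in control and 36.6 (69 UMIs) in ACD, a ratio of 0.39 (-0.11 to 0.89). Fibroblast-like cells were at 14.7 (480 UMIs) and 19.1 (380 UMIs), a ratio of 0.37 (0.18 to 0.57). Endothelial-like cells were at 13.5 (17 UMIs) and 13.4 (21 UMIs), a ratio of -0.01 (-1.0 to 1.0). Among these, the interval of the ratio left out 0 in fibroblast-like cells, but within each of the fibroblast-like clusters with cells of both libraries, where ratios ran from -0.13 in cluster 3 to 0.74 in cluster 29, it did not. Cluster 19, nearly all from ACD, was at 23.2. Cd163l1+ T-like cells had 7 and 14 Il17rc UMIs, at 4.09 and 3.71.

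Chondrocyte-like cells also carried Il17rc, at 16.2 and 14.2, a ratio of -0.19 (-0.38 to -0.01), and therefore give no background for this gene. Vascular smooth muscle-like cells were at 15.5 and 26.3, a ratio of 0.76 (0.19 to 1.35). At 2000 UMIs per cell, the shares of cells with Il17rc were 7.34% and 7.03% in keratinocyte-like, 2.83% and 3.57% in fibroblast-like and 3.80% and 3.70% in endothelial-like cells, against 3.05% and 2.80% in chondrocyte-like cells. For Il17ra the same shares were 3.95% and 2.34%, 6.81% and 6.53%, and 5.70% and 5.93%, against 3.39% and 3.72%.

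Il17re, the chain of the IL-17C receptor, stood out in keratinocyte-like and Cd163l1+ T-like cells. Keratinocyte-like cells were at 25.2 (63 UMIs) in control and 25.0 (47 UMIs) in ACD, a ratio of -0.01 (-0.59 to 0.55). Cd163l1+ T-like cells were at 54.9 (94 UMIs) and 31.8 (120 UMIs), a ratio of -0.79 (-1.19 to -0.38). In sub-cluster 3 the levels were 66.0 and 53.5, a ratio of -0.30 (-0.79 to 0.18), and in sub-cluster 7 they were 32.5, from 2 UMIs, and 20.3. As with Ccr6, the ACD level was lower in sub-cluster 7 than in sub-cluster 3. Sub-cluster 11 went the other way from the class, from 4 to 22 UMIs, a ratio of 0.96. Fibroblast-like cells had 22 and 10 UMIs (0.674 and 0.502) and endothelial-like cells 0 and 1. The ligand gene Il17c had 0 UMIs in the kept cells, which allows levels of up to 0.0325 in control and 0.0301 in ACD.

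A few cytokine UMIs fell in receiving classes, and many of them sat in single cells that also held T cell transcripts. In keratinocyte-like cells, Il17a had 0 UMIs in control and 47 in ACD, at least 20.8-fold higher against 3 UMIs. Of these, 44 were in 1 cell with 13 Cd3, 4 Cd163l1 and 31 Krt14 UMIs, and the same cell held 21 of the 22 Il17f UMIs. In fibroblast-like cells Il17a had 25 UMIs (0.766) and 105 (5.27), a ratio of 2.78 (2.14 to 3.47), with 30 and 23 in 2 ACD cells that had 22 and 19 Cd3 UMIs. Endothelial-like cells had 0 and 1. Il17f had 8 and 26 UMIs in fibroblast-like cells (0.245 and 1.30), and Il22, Il23r and Ccr6 had at most 29 UMIs in any receiving class. Summed Cd3 genes were also higher in ACD in these classes, at 24.4 and 81.2 in keratinocyte-like, 9.32 and 40.1 in fibroblast-like and 19.0 and 83.0 in endothelial-like cells.

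The wider pathway was followed through 54 genes, with a gene read only where it had 20 UMIs in the libraries together, and counted as higher or lower past a 2-fold ratio. In Cd163l1+ T-like cells 24 genes were read, of which 2 were higher and 1 lower. Of all 9372 genes read in that class, 3.64% were higher and 3.59% lower. The higher genes were Csf2, the gene of GM-CSF, at 14.6 and 46.4 with a ratio of 1.67, and Batf, an AP-1 factor of the type 17 program, at 33.3 and 79.3 with a ratio of 1.25. Il6ra was lower, at 29.8 and 10.3, a ratio of -1.53. The median ratio of the list was 0.20. Of the 8 member genes, all had 20 UMIs here and Il17a, Il17f and Il22 were past 2-fold, with a median of -0.21 against -0.06 over all genes.

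In dendritic epidermal T-like cells 14 list genes were read, of which 0 were higher and 2 lower, Csf2 at -1.93 and Il6ra at -1.26, against 5.57% higher and 4.24% lower of 6087 genes. This class therefore did not show the higher Csf2 of the Cd163l1+ class, although the difference was not tested. The higher Csf2 was not particular to the Cd163l1+ class. Its ratio was 3.24 in CD4+ T-like cells, from 4 control UMIs, and 2.62 in CD8+ T-like cells, from 1. In these 2 classes Batf was at 1.14 and 2.02 and Il6ra at -1.70 and -2.34. In ILC2-like cells the ratios were 0.42 for Csf2, 0.02 for Batf and -0.74 for Il6ra. Regulatory T-like cells had 0.04 for Batf and -1.09 for Il6ra.

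In keratinocyte-like cells few list genes differed, and some by a large ratio. Of 21 list genes read, 4 were higher and 0 lower, against 4.12% higher and 3.68% lower of 9864 genes. With 50 UMIs required 18 list genes were read, of which 3 were higher, and no share of all genes was set beside this count. S100a8 and S100a9, which encode the subunits of calprotectin, went from 2 UMIs each to 212 and 326, with ratios of 7.14 and 7.76. They were thus read only through their ACD UMIs. Both are also on the list of 8 neutrophil markers, whose sum was 1.60 and 287 in this class. Of the other 6 markers, 5 were at 0 in ACD and Cxcr2 was at 1.06. Ccl20, the ligand of CCR6, went from 23 to 67 UMIs, a ratio of 1.95 (1.25 to 2.70). Of the 8 members 5 were read, and the 2 past 2-fold, Il17a and Il17f, rested on the single cell with Cd3 UMIs.

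In fibroblast-like cells more list genes were past 2-fold. Of 38 list genes read, 14 were higher and 0 lower, against 6.07% higher and 1.88% lower of 13697 genes. The list held 22 genes reported as targets of IL-17 or IL-22, of which 14 were read and 11 were higher. The median ratio of the targets read was 3.54, against -0.00 over all genes. Low-control targets were read only through their ACD UMIs. With 50 UMIs required 10 targets were read, of which 7 were higher, with a median of 2.52 against -0.02 over 12415 genes. These 50 UMIs were also summed over the libraries, so this limit does not remove that selection. No share of all genes past 2-fold was set beside the 7. Cxcl5, a neutrophil chemokine, went from 7 to 1291 UMIs, a ratio of 8.24. Cluster 11, with 269 ACD cells, held 1083 of the 1291 ACD UMIs, a level of 504. No other fibroblast-like cluster was above 23.0 in ACD. Saa3, an acute-phase protein, went from a level of 8.46 to 1098, a ratio of 7.02, and Lcn2, an antimicrobial iron-binding protein, from 61 to 2920 UMIs, a ratio of 6.29. These genes answer other inflammatory signals as well as IL-17, and which signal moved them was not tested. S100a8 and S100a9, at 2.11 and 3.41 in ACD from 42 and 68 UMIs, are also neutrophil markers. The summed neutrophil markers were at 0.674 and 6.82 in this class. Other classes had similar ACD levels of both genes, at 1.59 and 2.92 in Cd163l1+ T-like and 1.98 and 2.96 in CD8+ T-like cells. Chondrocyte-like cells were at 1.81 and 2.86 in ACD. ILC2-like cells had 0 ACD UMIs of both genes, and dendritic epidermal T-like cells had 0 and 2. Both genes count among the 14 higher list genes and the 11 higher targets. Whether their fibroblast-like values are a background of the ACD library was not tested. Of the 8 members 6 were read, of which 2 were higher (Il17a and Il17f) and 1 lower (Ccr6, from 29 to 8 UMIs). Of the 26 ACD Il17f UMIs, 14 were in 1 cell with 29 Cd3 UMIs. The Ccr6 ratio ran from -1.17 to 0.99 over the alternative settings, so its direction was not stable.

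**Figure D5:**
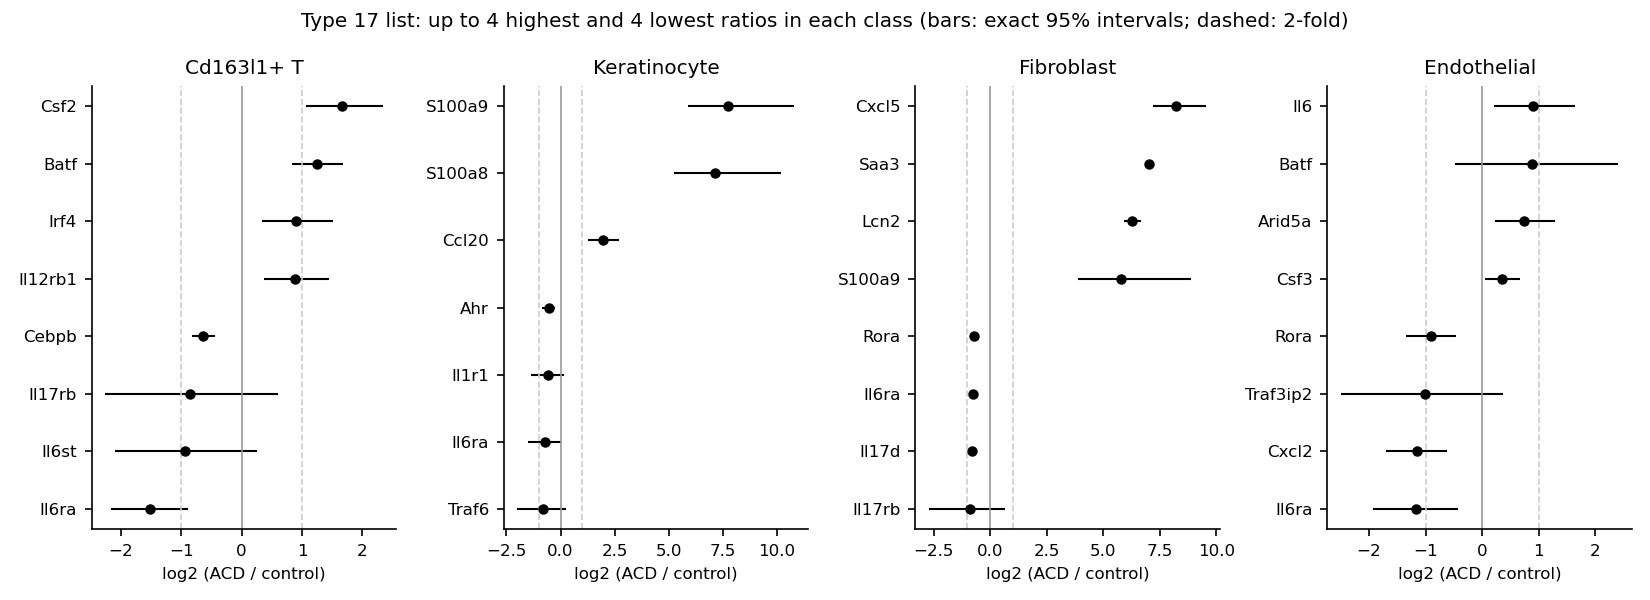
Log2 ratios, ACD over control, of up to 4 highest and 4 lowest genes of the wider list in Cd163l1+ T-like, keratinocyte-like, fibroblast-like and endothelial-like cells, with 95% exact conditional binomial intervals and dashed lines at 2-fold. Fibroblast-like cells reached 8.24 for Cxcl5, with most of its ACD UMIs in cluster 11. In endothelial-like cells, where Cxcl5 had 0 UMIs in both libraries, the highest was 0.90 for Il6.

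The target genes differed between fibroblast-like clusters. Saa3 was at 5.64 and 582 in cluster 3, 18.5 and 1932 in cluster 7, 11.4 and 747 in cluster 9 and 2.78 and 85.7 in cluster 11. It was thus higher in ACD in clusters that held cells of both libraries, and at 1395 in cluster 19. Cxcl1, another neutrophil chemokine, was higher in ACD in cluster 11, at 131 and 707 with a ratio of 2.43, but lower in clusters 3, 7, 9, 10 and 29, with ratios of -0.17 to -0.91. Its ratio over the whole class was 0.55, so the class value hid opposite directions. Il17d, an IL-17 family cytokine, went from 21.9 to 12.7 in fibroblast-like cells, a ratio of -0.78.

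In endothelial-like cells fewer genes could be read, 5 of the 22 targets among them, and no difference from fibroblast-like cells was tested. Of 22 list genes read, 0 were higher and 3 lower, Il6ra at -1.16, Cxcl2 at -1.15 and Traf3ip2, the adaptor gene of the IL-17 receptor, at -1.02, against 5.54% higher and 5.29% lower of 8973 genes. The interval for Traf3ip2 includes 0. The highest ratio was 0.90 for Il6, from 25 to 58 UMIs. Of the 8 members only Il17ra and Il17rc had 20 UMIs here, and both were within 2-fold. Fibroblast markers in this class were at 9565 in control and 1796 in ACD, and their part in these values was not tested.

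Genes most like each member were named by Pearson's correlation of log levels over 37 points (21 classes in up to 2 libraries, which share library and depth). For Il17a they were Il17f (0.96), Blk (0.87), Il23r (0.83) and Cd163l1 (0.82). Il23r was most like Blk (0.96) and Cd163l1 (0.92), both markers of the class. Ccr6 was most like Cysltr1 (0.95), a leukotriene receptor gene among the leading genes of the ILC2-like cells. Il22 was most like Pdcd1 (0.80) and Il17a (0.78). Il17rc was most like Tsen34 (0.93), and Il17re most like Aqp3 (0.83), a water channel gene of keratinocytes. These are descriptions across classes, not evidence of shared control.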

How the data were processed

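The authors deposited 1 matrix of UMI counts per library, made with Cell Ranger 3.1.0 on mm10 per the file headers and processing notes. These counts are raw and came with no cell annotation. Scripts in Python 3.11.15 (numpy 2.4.6, scipy 1.17.1, pandas 2.3.3) kept barcodes with over 200 but under 5000 genes, no more than 25000 UMIs and a mitochondrial share below 8%. The UMI limit is printed in the methods with the opposite sign and was read as an upper limit. Clustering used 2000 variable genes, 30 components, 20 neighbours and Leiden at resolution 1 (scanpy 1.11.5, leidenalg 0.10.2), without the members and the list genes. Lymphocytes were sub-clustered in the same way. A cluster was named from fixed markers, and clusters with markers of several types were left mixed or unnamed. Possible doublets (Scrublet, 560 control and 392 ACD cells, 4.59% and 3.36%) were kept and left out as an alternative. UMIs were summed per class and library, and with 1 library per condition no count model or test was run. A level is UMIs per 1000000 UMIs of the class, with an exact Poisson interval at 95%. A ratio against 0 UMIs is a bound at 3 UMIs over the group. Thinning drew 2000 UMIs per cell. The functions were tested on simulated data. The members and lists were chosen with earlier results of these data known. List genes were named from the 4 highest and 4 lowest ratios of a class, and genes like a member from the 5 with the highest correlation; Cxcl1, Il17b, and Il17d in chondrocyte-like cells were named after their values were seen. Of 55 list genes 54 were read, Il36a and Il36g under older symbols, and 1 of them is counted but not reported here by name. Promoters matched 7 of 8 members. The methods speak of a further sample and state fewer cells after filtering than were kept here.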

Additional observations from a re-analysis of the deposited data

Results flagged for a closer look

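Il17a in the Cd163l1+ T-like class had a higher ACD level in sub-cluster 11, the cells with cell-cycle genes (log2 ratio 0.67), and a lower one in sub-cluster 3 (-0.25). The ratios have opposite signs, and their difference was not tested. Without the 2 highest cells of each library they were 1.48 and -0.24.

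Il22 had ratios of 1.31 in Cd163l1+ T-like, 3.72 in CD4+ T-like and -2.37 in CD8+ T-like cells, so the direction differed between source classes. This difference was not tested either, and the CD8+ T-like value rested on 1 control cell: without the highest cell of each library it was 0.17. For CD4+ T-like cells, 1 ACD cell with 163 UMIs held most of the value.

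Barcodes removed by the filter, 682 in control and 1498 in ACD, carried member UMIs that entered only the alternative over all barcodes. In the removed ACD barcodes Il17a was at 3.83, Il17f at 2.38, Il22 at 1.0 and Il17rc at 24.2 UMIs per 1000000, against 0.146 for Il17a and 18.0 for Il17rc in the removed control barcodes. Il17a had 103 UMIs there in ACD and 1 in control.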

How the results depend on the processing

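Over the alternatives, 121 values of the main ratios stayed within the counting interval and 14 did not. In Cd163l1+ T-like cells the Il17a ratio (1.57) was 1.93 at Leiden resolution 0.5, 1.33 with classes gated on marker UMIs and 1.36 thinned. The Il17f ratio (2.33) was 2.69 at resolution 0.5, 1.06 gated, 1.99 as a mean over cells, 2.06 thinned, 1.94 without the highest cell and 1.21 without the 2 highest cells of each library. The Il22 ratio (1.31) was 0.88 thinned. The Il23r ratio (-0.27) was 0.079 at resolution 0.5 and 0.057 gated. At resolution 0.5 the ILC2-like cells joined this class. Il22 turned direction in CD8+ T-like cells without the highest cell (0.17) and in sub-cluster 3 thinned (-0.026). Il17ra was at -0.17 in fibroblast-like cells gated and 0.20 in endothelial-like cells over all barcodes.

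Shares of ACD UMIs moved too. For Il17a in Cd163l1+ T-like cells (72.9%) they were 71.5% over all barcodes, 79.8% without Scrublet calls, 68.6% gated, 81.4% as a mean over cells, 80.2% thinned and 80.5% without the highest cell. For Il17f (71.6%) they were 76.9% without Scrublet calls, 32.8% gated, 75.5% as a mean, 76.8% thinned and 74.8% without the highest cell. For Il22 (49.4%) they were 42.6% with the stricter filter, 42.7% over all barcodes, 45.3% without Scrublet calls, 45.2% at resolution 0.5, 44.0% gated, 55.5% as a mean and 64.4% without the highest cell. In CD4+ T-like cells (33.3%) the same order gave 40.5%, 40.4%, 39.5%, 38.5% and 44.0%, then 39.3% thinned and 18.4% without the highest cell. The causes were not tested, other than the removed cells themselves. Leaving out single cells was chosen after seeing the data.

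Past 1.5-fold, list counts were 6 higher and 4 lower in Cd163l1+ T-like cells and 1 higher and 2 lower in dendritic epidermal T-like cells. They were 6 higher and 3 lower in keratinocyte-like, 15 and 5 in fibroblast-like and 3 and 6 in endothelial-like cells. Past 2-fold with 50 UMIs required, they were 2 higher and 1 lower in Cd163l1+ T-like and 0 and 0 in dendritic epidermal T-like cells. In keratinocyte-like, fibroblast-like and endothelial-like cells they were 3 and 0, 8 and 0, and 0 and 2. No share over all genes was set beside these counts. No paired analysis was possible because each condition had 1 library, and no library could be left out. The few control CD4+ and CD8+ T-like cells limit every ratio in these classes.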

Other observations

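Among IL-17 family genes that are not members, Il17b was counted mainly in myelinating Schwann-like cells, at 163 UMIs per 1000000 in control (175 UMIs in 280 cells) and 184 in ACD (257 UMIs in 277 cells), a log2 ratio of 0.18 (-0.11 to 0.46). Il17d was spread over mesenchymal classes and was lower in ACD in chondrocyte-like cells as in fibroblast-like cells, at 29.8 and 23.3, a log2 ratio of -0.35 (-0.49 to -0.21). Over all kept cells Il17d went from 21.7 to 11.7.

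Il17a UMIs outside the lymphocyte classes also sat in few cells. Mononuclear phagocyte-like cells were at 32.9 in control and 64.7 in ACD, with 82 and 81 UMIs in 2 ACD cells that also had 5 and 22 Cd3 UMIs. Muscle-like cells held 15 in control, all in 1 cell with 6 Cd3 UMIs, and 1 in ACD.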
